A study of Macaca mulatta with 25 samples.

Results

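The 7 genes described here mark the syncytiotrophoblast, which is the multinucleate outer covering of the placental villi, and its hormones. They are CGA, PGF, ERVFRD-1, GCM1, OVOL1, SDC1 and CAPN6, each taken as the single entry of a table of 35395 macaque genes that a symbol table pairs with that name. They were chosen by measured values of these embryos, namely lower fitted levels than in controls and high levels in a few libraries, so those values are a description. They were measured by RNA sequencing of 25 libraries of rhesus macaque blastocysts, embryos that have formed a cavity and an outer trophectoderm but have not yet implanted. The embryos came from oocytes of treated females, fertilised in vitro and kept in culture for up to 8 days.

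The groups are named for the mothers. T females carried testosterone implants, which held blood testosterone at 3 to 5 times the usual level, and ate standard chow with 15% fat, 59% carbohydrate and 26% protein (10 libraries). WSD females ate an obesogenic Western-style diet with 36% fat, 46% carbohydrate and 18% protein (8 libraries). TWSD females had both the implants and that diet (2 libraries). Controls, C, had cholesterol implants and the standard chow (5 libraries). Treatment began at about 2.5 years of age, before puberty, and lasted 5 to 6 years before the ovaries of all groups were stimulated with recombinant gonadotropins, followed by an injection of human chorionic gonadotropin. Semen of 4 males was used throughout. Of the 10 females that began in each group, 7 T, 6 WSD, 3 TWSD and 10 C females could be stimulated, and the labels do not tie a library to a mother, a father or a number of embryos. P-values therefore measure the spread between these libraries alone. Values and counts given below for embryos are those of libraries.

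The syncytiotrophoblast forms when cytotrophoblast cells leave the cell cycle and fuse into a sheet with many nuclei. In human trophoblast the transcription factor GCM1 drives this step and switches on syncytin genes, which are captured retroviral envelope genes whose proteins merge cell membranes, while OVOL1 represses genes of the progenitor state. The fused layer secretes chorionic gonadotropin, a hormone of an alpha and a beta subunit that maintains the corpus luteum of early pregnancy, together with angiogenic factors such as PGF. In primates this layer appears around implantation, which is later than the blastocyst stage sampled here.

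Library totals ran from 14219054 to 35544542 counts, with 14247 to 21793 genes detected. Levels are given as CPM, counts scaled to a common library size, after TMM scaling, which matches libraries on the bulk of their genes, and they are not corrected for gene length, so they are compared between libraries and not between genes. All 7 genes passed the filter for the tests, at least 1 CPM in at least 5 libraries. CAPN6 passed in exactly 5 libraries, 4 of them C and 1 WSD, so it was tested because of its high levels in controls. CGA passed in 11, while PGF, GCM1 and SDC1 reached that level in all 25. The 4 libraries T 1, C 8, C 11 and C 12 had far higher levels of most of these genes than the rest, and results that rest on them are given with and without them. The 7 genes together took 0.370% of all counts in T 1, against 1.07%, 0.373% and 0.536% in C 8, C 11 and C 12, and at most 0.0224% in any of the other 21 libraries.

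CGA encodes the alpha subunit that chorionic gonadotropin shares with the pituitary gonadotropins and thyrotropin. Its level ran from 0.0878 CPM to 1004 CPM in T embryos, with a median of 0.876, and from 0.0547 to 3.34 CPM in WSD embryos, with a median of 0.397. It was 0.322 and 0.108 CPM in the TWSD embryos. Among controls, C 1 had 1.23 CPM, C 2 0.325, C 8 3025, C 11 2400 and C 12 1073 CPM. The gene was therefore either abundant or almost silent, with no library in between, since the highest level outside T 1, C 8, C 11 and C 12 was 4.24 CPM, in T 11. In those other 21 libraries CGA had only 2 to 95 counts, so small differences among them are within counting error. The 4 high libraries held 99.7% of the CGA signal summed over all 25. In bulk embryos, fewer cells of a type and less RNA per cell cannot be told apart.

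PGF, placental growth factor, is a secreted relative of vascular endothelial growth factor that binds the receptor FLT1. It was detected in every library, at 18.0 to 1358 CPM in T embryos (median 51.9) and at 30.7 to 99.7 CPM in WSD embryos (median 45.6). The TWSD embryos had 17.4 and 7.44 CPM, the lowest levels of the series. Of the controls, C 1 had 36.7 CPM, C 2 135, C 8 4179, C 11 374 and C 12 203 CPM. All 5 controls lay above both TWSD embryos, whereas C 1 lay within the range of the WSD embryos and C 2 above all of them. Unlike CGA, PGF had a clear level in the embryos with little of the other hormone gene, and the 4 high libraries held 85.5% of its summed signal, of which C 8 alone held 58.5%.

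**Figure D1:**
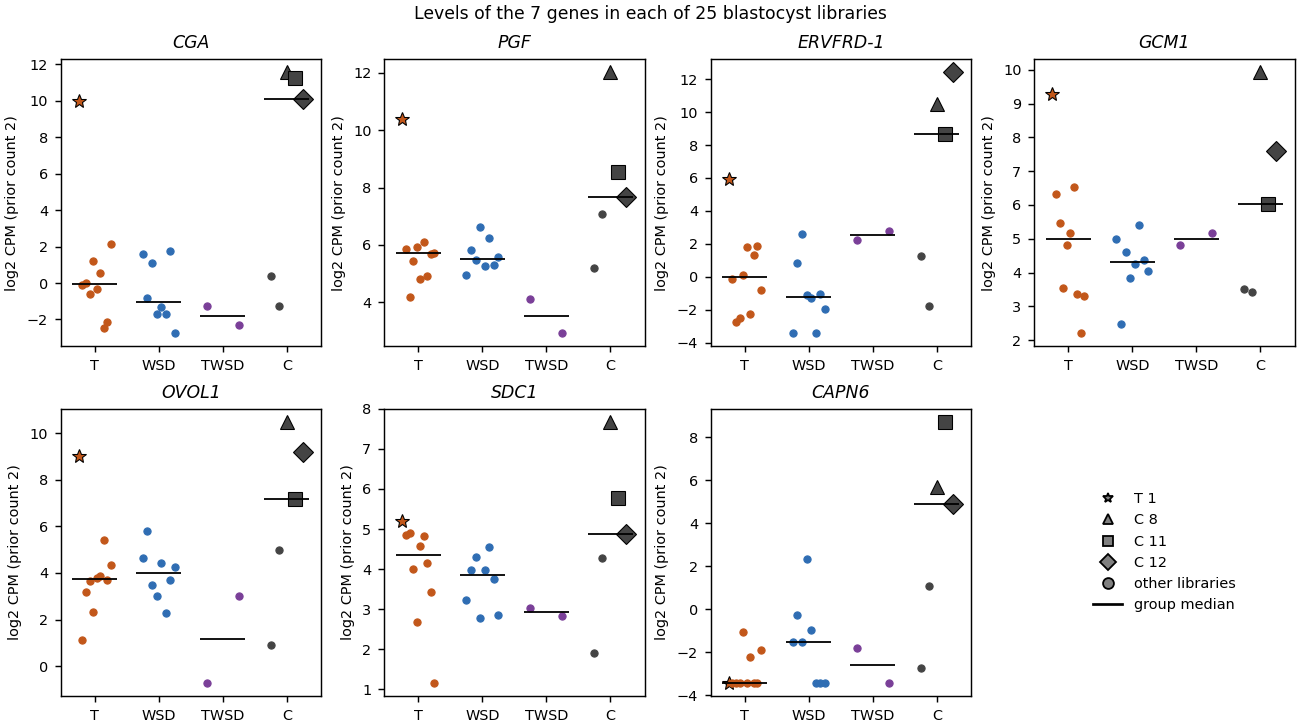
Level of each of the 7 genes in every library, as log2 CPM with a prior count of 2, for T, WSD, TWSD and C embryos from left to right. Each point is 1 library, black lines are group medians, and T 1, C 8, C 11 and C 12 have their own symbols. CGA, PGF, ERVFRD-1 and OVOL1 place these 4 above all other libraries, while CAPN6 in T 1 lies at the bottom with 0 counts.

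ERVFRD-1 encodes syncytin-2, a retroviral envelope protein that fuses trophoblast cells in primates. T embryos had 0.0578 to 60.4 CPM, with a median of 0.904 and T 1 at the top. WSD embryos had 0 to 5.97 CPM, with a median of 0.346 and 2 libraries without a count. The TWSD libraries had 4.70 and 6.69 CPM, more than 9 of the 10 T libraries. In the control group C 1 had 2.29 CPM, C 2 0.195, C 8 1449, C 11 402 and C 12 5493 CPM. Here C 12 stood out with 73.8% of the summed signal, and T 1, which was close to C 12 in CGA, held only 0.812%. The 4 highest levels of ERVFRD-1 and of CGA were in the same libraries, in very different proportions.

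The transcription factors were less restricted. GCM1 ran from 4.52 to 623 CPM in T embryos, with a median of 32.1, and from 5.45 to 42.0 CPM in WSD embryos, with a median of 19.9. It was at 28.0 and 35.6 CPM in the TWSD embryos. Among controls, C 1 had 11.5 CPM, C 2 10.6, C 8 976, C 11 64.9 and C 12 193 CPM. GCM1 was therefore present in every library, and C 11, with 2400 CPM of CGA, had less GCM1 than T 8 (91.9 CPM) and T 3 (80.8 CPM), which had 1.37 and 0.826 CPM of CGA.

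OVOL1, a zinc finger factor, ran from 2.07 to 513 CPM in T embryos (median 13.1) and from 4.71 to 55.8 CPM in WSD embryos (median 16.0). The TWSD embryos had 0.515 and 7.98 CPM. Of the controls, C 1 had 1.76 CPM, C 2 31.4, C 8 1437, C 11 146 and C 12 592 CPM. T 1, C 8, C 11 and C 12 were again above every other library, and C 1 was below all T and WSD embryos.

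SDC1 encodes syndecan-1, a heparan sulphate proteoglycan found on the surface of the syncytiotrophoblast and of many epithelia. Its signal was the least concentrated of the 7 genes in single libraries. It ran from 2.14 to 36.9 CPM in T embryos, with a median of 20.6, and from 6.76 to 23.3 CPM in WSD embryos, with a median of 14.4. It was at 8.05 and 6.97 CPM in the TWSD embryos. In the control group C 1 had 3.64 CPM, C 2 19.4, C 8 204.5, C 11 54.3 and C 12 29.3 CPM. C 12 lay just below T 4 (29.6 CPM), so 3 and not 4 of the libraries that stood apart exceeded all others, and together the 4 held 51.05% of the summed signal.

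CAPN6 encodes a calpain relative without protease activity that binds microtubules and is abundant in mouse and human placenta. It had no count in 7 of 10 T libraries and at most 0.393 CPM in the others. WSD embryos ran from 0 to 5.03 CPM, with a median of 0.256 and 3 libraries without a count, and the TWSD embryos had 0.193 and 0 CPM. Among controls, C 1 had 0.0587 CPM, C 2 2.02, C 8 52.1, C 11 423 and C 12 30.1 CPM. CAPN6 was thus seen at high levels only in the 3 controls, and C 11 held 82.2% of its summed signal. T 1, with 1004 CPM of CGA, had 0 counts of CAPN6, which allows up to 0.205 CPM.

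**Figure D2:**
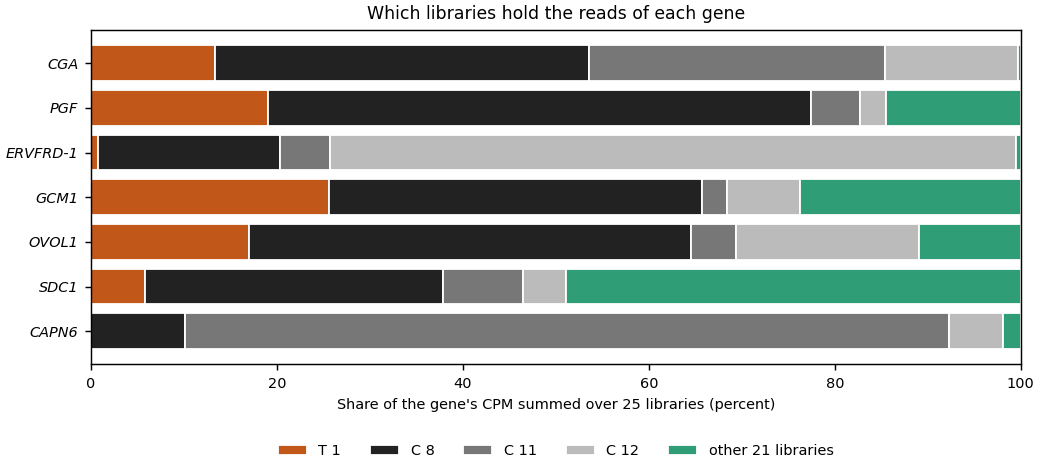
Share of each gene's CPM, summed over the 25 libraries, that came from T 1, C 8, C 11, C 12 and the other 21 libraries together, in percent. C 8 held the most PGF (58.5%), GCM1 (40.1%) and OVOL1 (47.6%), C 11 held 82.2% of CAPN6, and C 12 held 73.8% of ERVFRD-1.

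Many of the T and C means rested on a few high libraries. CGA averaged 101.5 ± 317 CPM in T, 1.20 ± 1.36 in WSD, 0.215 ± 0.151 in TWSD and 1300 ± 1380 CPM in C embryos (SD, n = 10, 8, 2 and 5). PGF averaged 177 ± 415.5 CPM in T, 53.7 ± 22.9 in WSD, 12.4 ± 7.04 in TWSD and 985.5 ± 1789 CPM in C embryos, and ERVFRD-1 averaged 7.22 ± 18.7 CPM in T, 1.11 ± 2.04 in WSD, 5.69 ± 1.40 in TWSD and 1469 ± 2326 CPM in C embryos. The SD exceeded the mean in T and in C embryos for all 3 genes, so the mean does not stand for a typical library of either group. GCM1 averaged 94.0 ± 188 CPM in T, 21.7 ± 11.2 in WSD, 31.8 ± 5.40 in TWSD and 251 ± 412 CPM in C embryos. OVOL1 averaged 64.5 ± 158 CPM in T, 19.7 ± 16.1 in WSD, 4.25 ± 5.28 in TWSD and 442 ± 605 CPM in C embryos. CAPN6 averaged 0.0690 ± 0.130 CPM in T, 0.837 ± 1.71 in WSD, 0.0966 ± 0.137 in TWSD and 101.5 ± 181 CPM in C embryos, and SDC1 averaged 19.98 ± 11.3 CPM in T, 13.8 ± 5.90 in WSD, 7.51 ± 0.763 in TWSD and 62.2 ± 81.6 CPM in C embryos.

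The levels of the 7 genes were positively correlated over all libraries, which rested on the 4 high libraries. Over the 25 libraries the 21 pairs had Pearson correlations of log2 CPM from 0.357 to 0.81, with a median of 0.655. CGA and PGF were the closest pair, and GCM1 and CAPN6 the most distant. Over the 21 libraries without T 1, C 8, C 11 and C 12 the same pairs ran from -0.410 to 0.522, with a median of -0.085, and 12 were negative. CGA and PGF then had 0.092, and ERVFRD-1 and PGF had -0.410. These are descriptions of libraries that share depth and scaling, and most CGA, ERVFRD-1 and CAPN6 values in the larger set rest on few counts.

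Both subunits of chorionic gonadotropin could be followed. CGB8 was the only beta-subunit gene of this hormone matched by symbol. Its near-identical copies and LHB, the luteinising hormone beta gene, may share its reads, and their split is uncertain. T 1 had 42 counts of CGB8 beside 14692 of CGA, or 0.286 per 100. C 8 had 5306 beside 59494 (8.92 per 100), C 11 had 9309 beside 64017 (14.5 per 100) and C 12 had 73 beside 20534 (0.356 per 100). The alpha subunit was thus abundant in all 4, while the beta subunit was abundant in C 8 and C 11 and scarce in T 1 and C 12. LHB reached 756 counts in C 11 and at most 36 in any other library.

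The study set treated embryos against controls, and the 7 genes were proposed with those comparisons in view, so their values there are a description. For T against C embryos the fitted log2 changes (edgeR, ± SE) were -10.41 ± 1.59 for CAPN6, -7.68 ± 1.64 for ERVFRD-1 and -3.68 ± 1.71 for CGA. They were -2.78 ± 1.09 for OVOL1, -2.48 ± 0.93 for PGF, -1.64 ± 0.58 for SDC1 and -1.42 ± 0.94 for GCM1. CAPN6 and ERVFRD-1, 2 of the 7, passed an adjusted p of 0.05 by edgeR's quasi-likelihood test, beside 4.11% of all 13934 genes tested (3.77% lower). No T library reached 1 CPM of CAPN6, so the filter itself favoured a lower value in T embryos. The count was 6 without T 1 and 1 without C 12, where all genes called numbered 911 and 64, against 573 with all libraries. No gene of the 7 had all T embryos below all controls, beside 0.1% of all genes.

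For WSD against C embryos the fitted changes were further below 0 than for T against C embryos in all but CAPN6. They were -10.34 ± 2.01 for ERVFRD-1, -10.11 ± 2.40 for CGA, -6.93 ± 1.50 for CAPN6, -4.48 ± 1.24 for OVOL1, -4.20 ± 1.05 for PGF, -3.53 ± 1.03 for GCM1 and -2.17 ± 0.62 for SDC1. All but GCM1, 6 of the 7, passed, beside 4.07% of all genes (3.6% lower). No WSD library had more than 3.34 CPM of CGA or 99.7 CPM of PGF. OVOL1 no longer passed with library totals or a looser filter, SDC1 with library totals, and PGF with the looser filter. Of the 25 fits without 1 library each, SDC1 passed in 7 and OVOL1 in 16. The count was 2 without C 12 and 3 without C 8, WSD 7 or WSD 10. All genes called in those fits numbered 57 without C 12, 686 without C 8, 292 without WSD 7 and 304 without WSD 10, against 567 with all libraries. No gene of the 7 had all WSD embryos below all controls, beside 0.237% of all genes.

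For TWSD against C embryos, with only 2 TWSD libraries, the changes ran from -12.63 ± 5.19 for CGA to -2.98 ± 1.78 for GCM1. By edgeR 0 of the 7 passed, beside 1.2% of all genes, and 6 had an unadjusted p under 0.05, beside 3062 of all 13934 genes. DESeq2 called 6, beside 1994 of all genes. CGA and PGF, 2 of the 7, had both TWSD embryos below all 5 controls, beside 7.84% of all genes. For CGA the margin was that between 0.322 CPM in TWSD 2 and 0.325 CPM in C 2, which is within counting error. The OVOL1 change was -6.68 ± 2.57, but TWSD 3 with 7.98 CPM lay above C 1.

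The median change of the 7 genes was -2.78 in T, -4.48 in WSD and -6.68 in TWSD embryos against controls, beside medians of -0.12, -0.12 and -0.38 over all genes tested. The 3 comparisons share the same 5 controls. Without C 8, C 11 and C 12 no gene of the 7 passed in any of them, and that fit called only 1 (T), 1 (WSD) and 18 (TWSD) of all 13934 genes. The changes for T against C embryos then became 7.02 ± 3.90 for CGA, 3.10 ± 1.49 for GCM1, 2.55 ± 2.38 for ERVFRD-1, 1.97 ± 1.73 for OVOL1, 1.05 ± 1.29 for PGF and 0.81 ± 0.75 for SDC1, and CAPN6 remained lower at -3.775 ± 1.78. For WSD against C embryos they ran from -0.67 ± 1.16 for PGF to 0.99 ± 1.29 for GCM1. C 1 and C 2, the controls left, had levels of the 7 genes in or near the range of the treated embryos. Since C 8, C 11 and C 12 were singled out by their high levels of these genes, this fit is a description.

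**Figure D3:**
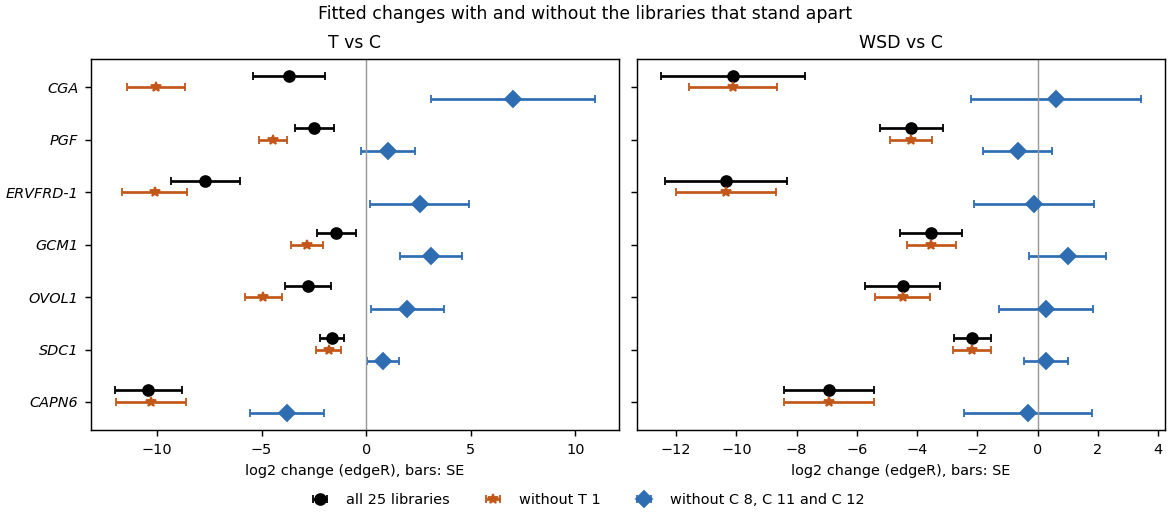
Fitted log2 change of each gene with its SE in T against C embryos (left) and WSD against C embryos (right), from all 25 libraries, without T 1, and without C 8, C 11 and C 12. Without T 1 the change of CGA in T embryos is -10.04, against -3.68 with it, and without the 3 controls 6 of 7 changes in T embryos are above 0.

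T and WSD embryos were also compared with each other, and 0 of the 7 genes passed, beside 0% of all genes. T 1 is among the few libraries whose high levels the choice of genes drew on, so these values are a description too. All 7 had a Benjamini-Hochberg adjusted p of 1.00 in the quasi-likelihood test of edgeR, and 3 had an unadjusted p under 0.05, beside 237 of all 13934 genes. CGA had the widest difference, 6.43 ± 2.02 (95% interval 2.23 to 10.6), and DESeq2 called it (adjusted p = 0.0104), beside 6 of all genes. Without T 1 the CGA difference was 0.07. CAPN6 was lower in T than in WSD embryos by this fit, at -3.48 ± 1.29 (95% interval -6.17 to -0.79), where WSD 6 held the highest level of both groups. GCM1 had 2.11 ± 0.90, PGF 1.72 ± 0.87, ERVFRD-1 2.66 ± 1.41, OVOL1 1.71 ± 1.03 and SDC1 0.53 ± 0.53. Without T 1, OVOL1 stood at -0.43 and PGF at -0.24.

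Other genes of the placental programme were counted from 6 lists of 96 genes, of which 82 were matched by symbol and 60 were tested. Lists were chosen with earlier results of these data known. For T against C embryos 7 of the 60 (11.7%) passed and all 7 were lower, and for WSD against C embryos 13 (21.7%) passed, all lower, beside the 4.11% and 4.07% over all genes. The median change of the 60 was -1.03 and -0.95. For TWSD against C embryos edgeR called 0 of the 60, beside 1.2% of all genes, with 23 at an unadjusted p under 0.05 and 19 called by DESeq2, beside 3062 and 1994 of all genes. For T against WSD embryos edgeR called 0 of the 60, with 4 at an unadjusted p under 0.05.

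The hormone list and the list built around PGF come first. Among the hormones, 32 listed and 6 tested, CGB8 and GDF15 passed as lower in both groups. CGB8 changed by -8.52 ± 1.60 in T embryos and -9.61 ± 1.85 in WSD embryos (adjusted p = 0.00551 and 0.00701, edgeR's quasi-likelihood test). GDF15, a secreted hormone of trophoblast, changed by -2.002 ± 0.42 and -2.03 ± 0.45. It was highest in C 12 (651 CPM) and C 11 (488 CPM), while C 8, the library with most CGA and PGF, had 104.5 CPM and lay below T 11 (124 CPM). LEP, leptin, did not pass, at -0.17 ± 0.67 and -0.20 ± 0.70. Of the 7 genes tested from the list of PGF partners and receptors, 2 passed in T and 4 in WSD embryos. VEGFA changed by -4.01 ± 1.07 in T and -5.14 ± 1.22 in WSD embryos, and the co-receptor NRP1 by -4.87 ± 1.10 and -5.03 ± 1.21. KDR and ENG, of the same list but not receptors of PGF itself, passed in WSD embryos at -6.40 ± 1.81 and -8.57 ± 2.12. FLT1, the receptor of PGF, did not pass, at -0.40 ± 0.77 in T and -0.55 ± 0.80 in WSD embryos, and C 8, with 4179 CPM of PGF, had 5.39 CPM of FLT1.

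The fusion and transcription factor lists hold the genes nearest in role to ERVFRD-1 and GCM1. In each of these lists, and in the steroid list, at most 1 gene passed in each group. Of 10 fusion genes 0 passed in T and 1 in WSD embryos, ERVV-1, another retroviral envelope gene, at -9.18 ± 2.00. The junction genes GJA1 (0.70 ± 0.54 in T and 0.74 ± 0.55 in WSD embryos) and TJP1 (0.33 ± 0.23 and 0.44 ± 0.24) did not pass, and GJA1 was at 1.78 CPM in C 12, the library with most ERVFRD-1, against 77.3 to 406 CPM in the other 24. Of 11 transcription factors 1 passed in each group, TFAP2A, which binds the CGA promoter in human trophoblast, at -3.20 ± 0.73 in T and -3.65 ± 0.80 in WSD embryos. GATA2 and TBX3 did not pass, at -1.68 ± 0.70 and -0.99 ± 0.40 in T embryos. Of 10 steroid synthesis genes 0 passed in T and 1 in WSD embryos, CYP11A1, which cuts cholesterol to pregnenolone, at -2.40 ± 0.53 in WSD embryos and -1.21 ± 0.49 in T embryos. HSD3B1, the next enzyme towards progesterone, was at -1.44 ± 1.47 in T and -1.35 ± 1.56 in WSD embryos. The last list holds mainly surface, transport and secreted genes, and also others such as HEXIM1. Of its 16 genes tested, 2 passed in T and 4 in WSD embryos. HEXIM1, an inhibitor of the elongation factor P-TEFb, changed by -4.31 ± 0.87 and -5.34 ± 0.99, and the membrane mucin MUC15 by -3.82 ± 0.92 and -4.001 ± 1.00. The iron exporter SLC40A1 (-8.21 ± 2.12) and SLC13A4, a sulphate transporter named after its value was seen (-5.74 ± 1.62), passed in WSD embryos. TFRC, the iron importer, was at 0.59 ± 0.32 in T and 0.35 ± 0.33 in WSD embryos. Without C 8, C 11 and C 12 none of the 60 genes passed in T or WSD embryos, where 1 of all 13934 genes passed in each, and the change was above 0 in all 7 that had passed in T embryos and in 9 of the 13 that had passed in WSD embryos.

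Markers of other cells differed among the libraries rich in the 7 genes, and their part in the results was not tested. The 8 epiblast genes measured, which mark the cells that form the embryo proper, summed to 774 to 1737 CPM in T, 472.5 to 1168 in WSD, 915 to 1052 in TWSD and 3.55 to 1593 CPM in C embryos. The low end was C 12, and C 11 had 26.7 CPM. NANOG was at 171 CPM in T 1, against 33.3, 0.637 and 0.627 in C 8, C 11 and C 12, and FGF4 had no count in C 11 and C 12. CGA was thus abundant both in C 11 and C 12, with most epiblast markers at or near 0, and in T 1, which had the highest mean of the list. C 8, with most CGA, lay between them, with POU5F1 at 206 CPM against 787 in T 1 and 8.51 in C 11. GDF3 was still at 15.8 CPM in C 11. The 10 primitive endoderm genes summed to 728 to 5228 CPM in T, 1400 to 4665 in WSD, 854 to 1778 in TWSD and 674 to 19410 CPM in C embryos. C 11, with most CAPN6, was at the top, and C 12, with most ERVFRD-1, had 0 counts of RSPO3, BMP2 and FOXA2. GATA6, of the same list, was at 305 CPM in C 12, above T 1 (92.1 CPM), C 8 (62.0 CPM) and C 11 (78.3 CPM).

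The 11 trophectoderm and cytotrophoblast genes summed to 3511 to 12430 CPM in T, 5224 to 19240 in WSD, 6191 to 6927 in TWSD and 760 to 12620 CPM in C embryos, with no gene at 0 throughout a group. C 12 had 1.57 CPM of CDX2 and 4.86 CPM of KRT19. The 9 extravillous trophoblast genes summed to 24.3 to 1391 CPM in T and 31.6 to 571 CPM in WSD embryos. The sums were 38.1 to 49.3 CPM in TWSD and 16.7 to 11210 CPM in C embryos. C 11 held 10130 CPM of FN1, fibronectin, against 728 in T 1, 474 in C 8 and 4.23 in C 12. The 4 highest levels of ITGA5 were in C 11, C 8, C 12 and T 1 (482, 126, 83.1 and 69.9 CPM). MMP2 was highest in T 1, C 11 and C 8 (505, 479 and 331 CPM), with 16.4 CPM in C 12. NOTUM was highest in C 12, T 1 and C 8 (135, 54.8 and 52.8 CPM), with 9.6 CPM in C 11. ITGA1, ASCL2, MMP14, HTRA4 and FSTL3 did not set these 4 libraries apart. The 10 cumulus and granulosa cell genes summed to 44.4 to 129 CPM in T, 41.7 to 56.2 in WSD, 53.8 to 103 in TWSD and 69.8 to 1193 CPM in C embryos. STAR, of this list, was present in every library, from 32.2 CPM in WSD 3 to 102 CPM in TWSD 2. It made up most of the sums in WSD and TWSD embryos. Of the defining genes of this list, AMH was highest of all 25 libraries in C 12 (8.88 CPM). FSHR had 4 counts in T 1 and none in C 8, C 11 and C 12, and LHCGR had none in these 4 and at most 11 in any library. TNFAIP6 was at 49.0 CPM in T 1, against 28.5, 212 and 122 in C 8, C 11 and C 12, and at most 0.738 CPM elsewhere. VCAN and HAS2, of the same list, were highest in C 11 (667 and 267 CPM) and next in C 8 (28.0 and 32.4 CPM). T 1 had 3.42 and 17.7 CPM of them, and C 12 had 0 and 0.0522 CPM. The 10 oocyte genes summed to 81.1 to 321 CPM in T, 75.7 to 195 in WSD, 163 to 467 in TWSD and 9.71 to 308 CPM in C embryos, and the 5 sperm genes to at most 0.347 CPM in T, 0.801 in WSD, 0.252 in TWSD and 3.45 CPM in C embryos.

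**Figure D4:**
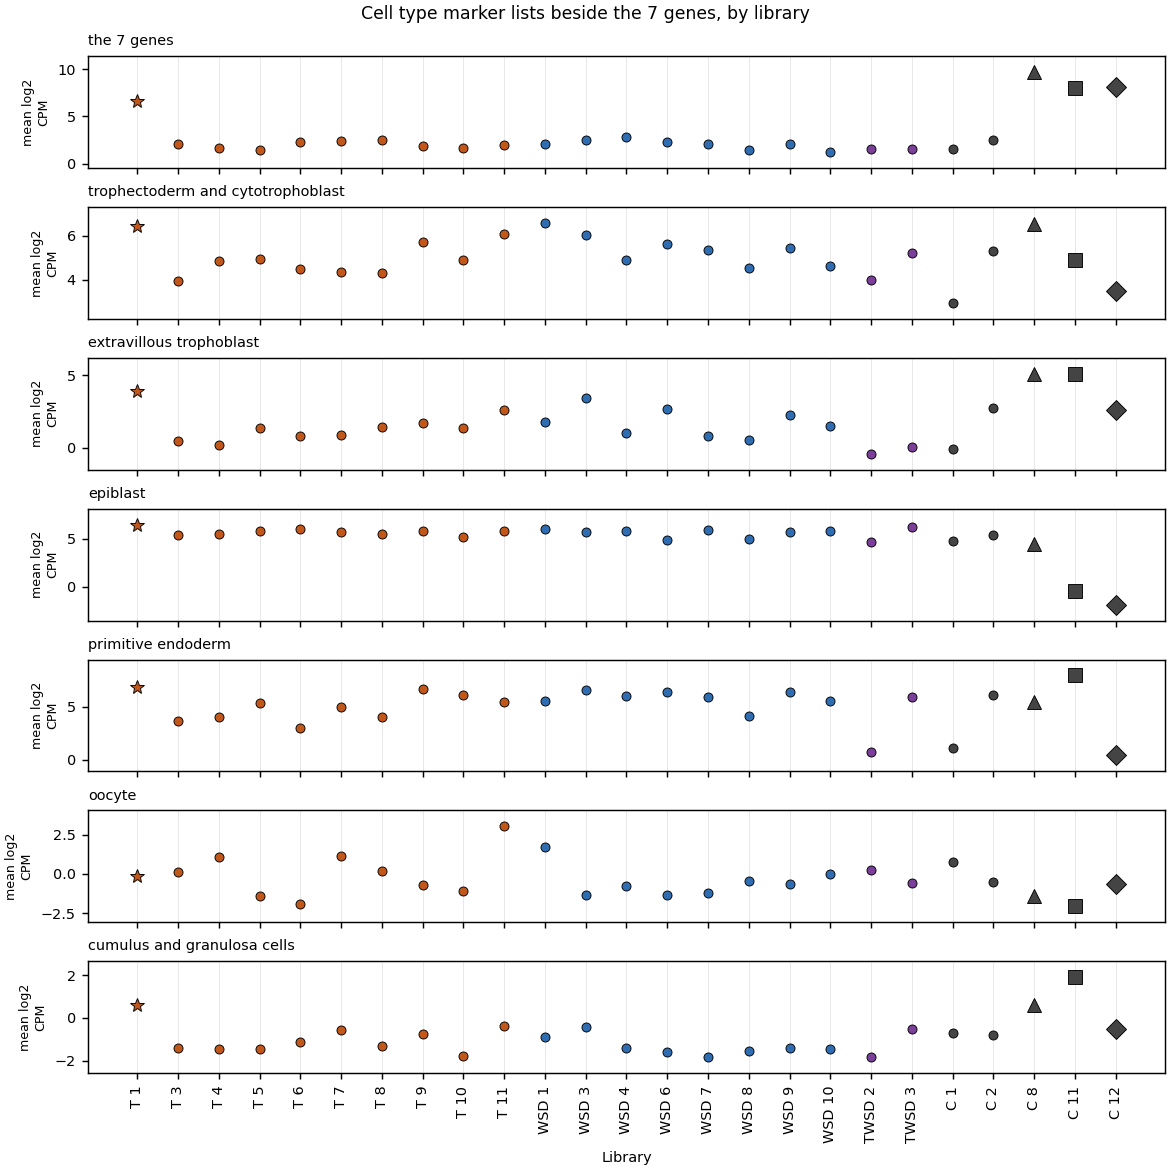
Mean log2 CPM of the 7 genes and of 6 cell type marker lists in each library, T libraries to the left and controls to the right. The mean of the 7 genes is 6.62 in T 1, against 9.70, 8.02 and 8.11 in C 8, C 11 and C 12, and the epiblast mean is -0.39 in C 11 and -1.85 in C 12.

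Outside these lists, the genes whose levels were most like the mean of the 7 over the 25 libraries, among 12598 with a symbol, were VSIG1 (r = 0.928), NEURL1 (0.928), IL1RN (0.927), CDKN1C (0.922) and GPR137 (0.921). They were followed by MLLT1, IQCD, SQSTM1, KALRN and SLC22A18, at 0.916 to 0.905. IL1RN, the interleukin-1 receptor antagonist, was at 317 CPM in T 1, against 1105, 255 and 562 in C 8, C 11 and C 12, and at most 1.38 CPM elsewhere. Over the 21 other libraries its correlation with the mean of the 7 was -0.051, and that of CDKN1C, an inhibitor of the cell cycle, was 0.350. With a prior count of 0.5, 9 of the 10 genes were again among the 10 highest. Most like CGA alone were MLLT1 (0.939), IL1RN (0.938), VSIG1 (0.925), PAMR1 (0.924) and FST (0.924), which encodes follistatin, an antagonist of activin. FST was at 554 CPM in T 1, against 2405, 561 and 3661 in C 8, C 11 and C 12, and at most 11.2 CPM elsewhere.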

How the data were processed

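The authors deposited raw counts per gene for 25 libraries, whole numbers without normalization. The submitters' processing notes name FastQC 0.11.8, Trimmomatic 0.39, STAR 2.7.0 and the build Mmul_10. The counting tool, strand setting and annotation were not given in the sources used here, so reads of overlapping, antisense or near-identical genes may be split or shared. All columns matched 1 sample title each.

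Symbols came from a table that paired 24173 of 35395 gene identifiers. The filter of 1 CPM in 5 or more libraries left 13934 genes, 12605 of them with a symbol. The fit used edgeR 4.0.16 (R 4.3.3): TMM scaling, robust quasi-likelihood F-tests, group as the only term, all 25 libraries sharing the dispersion (biological coefficient of variation 0.9), and Benjamini-Hochberg adjustment over all genes with a threshold of 0.05. The SE is the log2 change divided by the square root of F, and intervals use 21 degrees of freedom. The code was tested on simulated counts. Log2 CPM has a prior count of 2, and a value allowed by 0 counts is that of 3 counts, for counting error only. In the shallowest library 1 CPM is 14.2 counts.

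The 7 genes and all lists (6 placental, 7 of cell types) were chosen with earlier results of these data known. Named are the 7 genes, the other placental genes that passed (at most 12 per comparison, by p), the 2 of highest mean CPM per list, and the 10 and 5 most correlated genes. Alternatives were DESeq2 1.42.0, library totals, a looser filter (counts in at least 2 libraries, 29196 genes), voom with quality weights (limma 3.58.1), a replicate block, the fits without C 8, C 11 and C 12 and without these and T 1, and 25 fits without 1 library each. Within groups no library repeated another (84 pairs, smallest chi-square per gene 71.7). No sequence is printed, and coordinates were not used here.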

Additional observations from a re-analysis of the deposited data

Results flagged for a closer look

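In 21 sets of 1 gene in 1 group, of 4 or more libraries each, the gap of the highest or lowest library to its neighbour was compared with the range of the group on the log2 scale. The library T 1 stood out from the other T embryos in 3 of them. Chance gives about 1 in 20 sets, but that rate does not apply here, since the genes were chosen for high levels in a few libraries and all 3 sets concern the same library, so the values are a description. CGA was at 1004 CPM in T 1 and at most 4.24 CPM in the other T embryos. PGF was at 1358 CPM, against at most 68.2 CPM. ERVFRD-1 was at 60.4 CPM, against at most 3.51 CPM, and its ratio of 0.47 only just passed the critical value of 0.466. With a prior count of 0.5, CGA and PGF still passed and ERVFRD-1 did not. No single control stood out in this way in any of the 7 genes.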

How the results depend on the processing

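In T against C or WSD against C embryos, 0 of the 7 genes and 0 of the 60 other placental genes passed once C 8, C 11 and C 12 were left out, also when T 1 was left out too. Of all 13934 genes that fit called only 1 and 1, and 0 and 1 without T 1 too. These libraries were singled out by their high levels of the 7 genes. The loss of calls among the 7 largely follows from that choice and is no independent check. For T against C embryos the changes turned to 7.02 (CGA), 3.10 (GCM1), 2.55 (ERVFRD-1), 1.97 (OVOL1), 1.05 (PGF) and 0.81 (SDC1), and without T 1 too to 0.68 (CGA), 1.69 (GCM1), 0.13 (ERVFRD-1) and 0.67 (SDC1). For WSD against C embryos they turned to 0.59 (CGA), 0.99 (GCM1), 0.28 (OVOL1) and 0.28 (SDC1), and without T 1 too to 0.64 (CGA), 0.99 (GCM1), 0.28 (OVOL1) and 0.28 (SDC1). For TWSD against C embryos they turned to 2.21 (ERVFRD-1) and 1.54 (GCM1), with the same values without T 1. For T against WSD embryos OVOL1 and PGF turned to -0.42 and -0.23 without all 4 libraries, and to -0.34 and -0.0905 with voom; the cause was not tested.

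DESeq2 called 6 of the 7 genes in TWSD against C (1994 of all genes) and 1 in T against WSD embryos (6 of all genes), and 11 and 19 of the other placental genes in T and TWSD against C embryos. Voom with quality weights called 0 of the 7 and 0 of the 60 in T or WSD against C embryos. The cause of these differences was not tested. Leaving out 1 library at a time gave 1 to 6 (T), 2 to 7 (WSD) and 0 to 2 (TWSD) of the 7 genes against controls, and 2 to 17, 3 to 19 and 0 to 9 of the others. Of all 13934 genes the same fits called 64 to 1249 (T) and 57 to 1103 (WSD). With both TWSD libraries kept they called 112 to 680 (TWSD). Calls thus varied widely over all genes too, and these ranges do not single out the placental genes. The TWSD ranges include fits that left 1 TWSD library, so their ends carry no weight. Over these fits the GCM1 change in T against C embryos ran from -2.83 to 0.37, 0.37 being the value without C 8. In T against WSD embryos OVOL1 ran from -0.43 to 2.15 and PGF from -0.24 to 1.89. Over all genes edgeR called 573 (T), 567 (WSD) and 167 (TWSD) against controls, DESeq2 1102, 1185 and 1994, library totals 240, 321 and 96, the looser filter 602, 492 and 97, and voom 0 each, with 1241, 1165 and 428 at an unadjusted p under 0.05. In TWSD embryos 47 were lower and 120 higher by edgeR, 1567 and 427 by DESeq2. Library totals moved the median change over all genes to 0.02 (T) and -0.01 (WSD).

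The deviations of libraries that share a number had correlations from -0.376 to 0.222. Such pairs are few, so these values do not settle whether the numbers pair libraries, and the labels do not say. With the replicate block edgeR called 0 of the 7 genes, 0 of the 60 and 0 of all genes in T or WSD against C embryos, with 786 and 566 at an unadjusted p under 0.05. Where counts of CGA, ERVFRD-1 and CAPN6 are few, as in most libraries, small differences cannot order those libraries.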
